A study of Mus musculus with 6 samples.

Results

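Growth factor signalling through platelet-derived growth factor (PDGF) and insulin-like growth factor (IGF) was followed through 10 genes of mouse aorta: the ligand genes Pdgfa, Pdgfb, Pdgfc, Pdgfd and Igf1, the receptor genes Pdgfrb and Igf1r, and the genes of the IGF-binding proteins Igfbp2, Igfbp3 and Igfbp5. They were found by gene symbol in the deposited table, where all 10 were present among 55487 genes and all had a normalized count above 0 in every library. RNA came from the media and intima of aortas whose adventitia had been stripped, in 6 libraries. All mice lacked Apoe (Apoe-/-), which raises plasma cholesterol, all had received marrow from Apoe-/- donors at 8 to 10 weeks of age, and all were fed a Western diet (21% fat) for 6 weeks after 4 weeks of recovery. In 3 libraries the recipients are labelled ChemR23e/eApoe-/- (here "labelled ChemR23-deficient"), and in 3 they are labelled Apoe-/- with no change in ChemR23 named (here "labelled control"). The labels place the loss of ChemR23 outside the blood lineages, since the donor marrow of both groups has no such change named. Replicates are numbered in the order of deposition. Nothing in the labels says that each library is a separate animal, and p-values then reflect the spread of these 6 libraries, which may be technical.

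PDGF ligands are dimers that bind receptor tyrosine kinases on mesenchymal cells. In the vessel wall PDGF-B from endothelium, platelets and macrophages acts on the beta receptor of smooth muscle cells and pericytes, and it is known for driving their recruitment, migration and proliferation. IGF-1 acts through the IGF-1 receptor as a survival and growth signal for smooth muscle, while IGF-binding proteins hold the ligand in the matrix or in the circulation until proteases release it.

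Several facts of the whole series touch these genes. Depth was 30887855 to 38600604 gene-assigned reads a library, as recovered from the table. Cmklr1, which encodes ChemR23, was not lower in aortas labelled ChemR23-deficient: its normalized count was 2388, 1788 and 1551 there, against 1396, 1028 and 1720.2 in those labelled control (log2 difference 0.47, SE 0.21, limma adjusted p = 0.427). What the e allele changes in the transcript is not stated in the labels, so it is not known whether this level can check the labels. The authors' deposited table names its group means treated and control, and the mean named treated is that of the 3 libraries labelled control. All directions here follow the sample labels. Labelled-deficient replicates 1 and 2 had Xist at 16083 and 13146 normalized counts and the Y-linked Ddx3y at 8.54 and 0. Labelled-deficient replicate 3 and the controls had Ddx3y at 6058 to 6796, so 4 libraries expressed Y-linked genes (here "Y-expressing") and sex overlaps with the labels. Xist was at 373 in labelled-deficient replicate 3, against 8.87 to 22.0 in the controls, so the only labelled-deficient library among the 4 Y-expressing ones carried both signals, unlike the controls. Summed macrophage markers were at 34529, 48451 and 13216 in aortas labelled ChemR23-deficient, beside 11009.9, 16141 and 12328 in those labelled control. Smooth muscle markers such as Acta2 and Myh11 summed to 1339550 to 1802570 and 1380120 to 1478710, and no smooth muscle or endothelial marker was at 0 in any library. Of the 10 smooth muscle markers 0 passed limma and 1, beside 12.2% of all genes, had an unadjusted p under 0.05. That was Myocd, lower at 3340 to 5543 against 6271 to 8589 (log2 -0.84, SE 0.20, limma adjusted p = 0.155). DESeq2 called only Myocd of this list, where it called 4.4% of all genes. Fibroblast and adipocyte markers were present too, although the adventitia had been removed.

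Levels were first compared between genes as normalized counts per kilobase of exon, which allows for length. Pdgfd was the most abundant of the 10, at 2609 to 3163 per kilobase in aortas labelled ChemR23-deficient and 2574 to 2853 in those labelled control. Pdgfrb followed, at 2169 to 2350.1 and 1513 to 1766, and then Igfbp5, at 969 to 1993 and 1014 to 1389. Pdgfa had 676 to 740.3 in the labelled-deficient libraries and 616 to 649.9 in those labelled control. Pdgfc (range over all 6 libraries 279.6 to 385), Igf1r (210.3 to 297) and Pdgfb (154 to 261) formed a middle group with neighbouring ranges that overlap. Igfbp2 (99.7 to 157), Igf1 (31.7 to 178) and Igfbp3 (7.43 to 52.5) were the lowest per kilobase. Over the 6 libraries the ranges of Pdgfd and Pdgfrb, of Igfbp5 and Pdgfa, and of Pdgfa and Pdgfc did not overlap, while those of every other pair of neighbours in this order did.

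**Figure D1:**
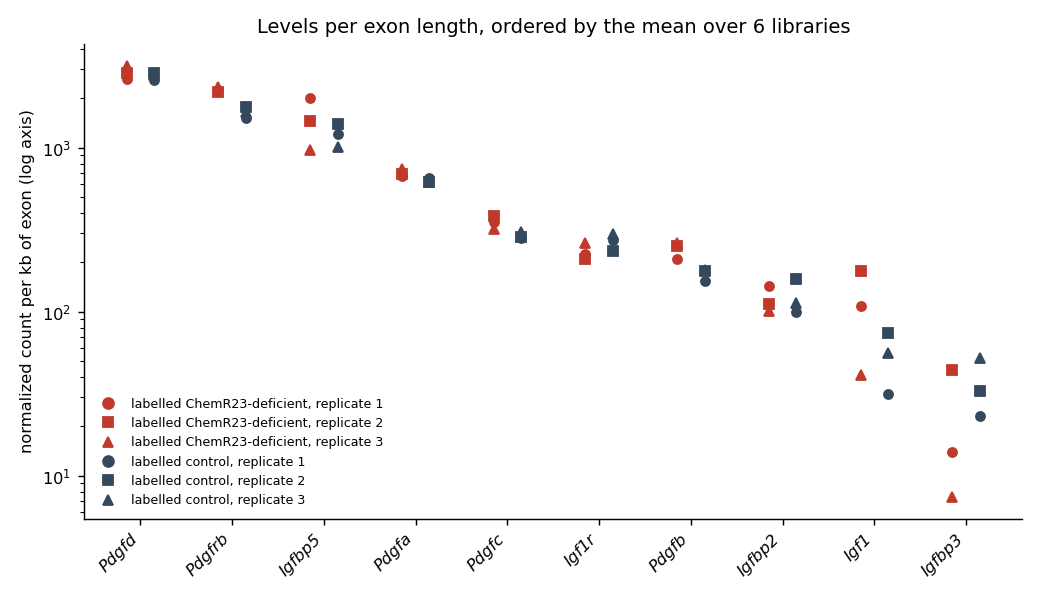
Normalized counts per kilobase of exon (log axis) for the 10 genes in each library, ordered by their mean over 6 libraries, with libraries labelled ChemR23-deficient in red and labelled control in dark blue. Pdgfd is highest in the order, at 2574 to 3163, and Igfbp3 lowest, at 7.43 to 52.5.

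The comparison between groups asked how these transcripts differ with the ChemR23 label of the recipient. Pdgfrb, Pdgfb, Pdgfc and Pdgfa were higher in every library labelled deficient than in any control, by 1.37, 1.41, 1.22 and 1.12 times in the means. Such a gap in that direction was seen in 8.8% of all 20669 genes tested (17% in either direction), and in 10.1% of those with a mean of at least 100. None of the 10 genes passed limma at an adjusted p under 0.05, a threshold passed by 28 genes or 0.135% of all tested. The unadjusted limma p was under 0.05 for 4 of the 10 genes, against 12.2% of all, with Pdgfa at 0.0496. The count was 3 with a pseudocount of 0.5, no filter on low values or TMM scaling, and 3 to 6 with each library left out. DESeq2 on the recovered reads called 2 of the 10, Pdgfrb and Pdgfb, both higher, where it called 4.4% of all genes and 2.55% as higher. In the authors' deposited table the same 2 genes pass an adjusted p of 0.05, as do 4.38% of its genes. The edgeR quasi-likelihood test called 0 of the 10, with 4 at an unadjusted p under 0.05, where it called 0.00658% of all. The median log2 difference of the 10 genes was 0.20, beside -0.01 over all genes tested, and 7 of the 10 were above 0, where 48.8% of all were. Without labelled-deficient replicate 3 limma called 2.07% of all genes and 0 of the 10.

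Pdgfrb encodes the PDGF beta receptor (ENSMUSG00000024620, GRCm38 chromosome 18, 61045150 to 61085061, plus strand). Its normalized count was 12250.3, 11883 and 12874 in aortas labelled ChemR23-deficient, against 8288, 9673 and 9051 in those labelled control. The lowest labelled-deficient library thus lay above the highest control, and the values within each group lay close together. The means were 12336 ± 501 and 9004 ± 694 (SD, n = 3 each), a log2 difference of 0.46 (SE 0.08, 95% interval 0.28 to 0.63, limma adjusted p = 0.0752). The adjusted p was 0.0892 by edgeR's quasi-likelihood test and 8.36e-05 by DESeq2, with almost the same log2 difference (0.45 by either). In the authors' deposited table Pdgfrb has a log2 fold change of -0.43, treated over control as that table names them, with adjusted p = 8.42e-05.

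Pdgfb encodes the B chain, the main ligand of that receptor (ENSMUSG00000000489, chromosome 15, 79995874 to 80014977, minus strand). It was at 874, 1048 and 1085 normalized counts in aortas labelled ChemR23-deficient, against 643, 733 and 750.4 in those labelled control. Again the groups did not overlap, and labelled-deficient replicate 1 was nearest to the controls. The means were 1002 ± 112 and 709 ± 57.8 (SD, n = 3 each), a log2 difference of 0.50 (SE 0.11, 95% interval 0.24 to 0.75, limma adjusted p = 0.136). By edgeR's quasi-likelihood test the adjusted p was 0.125, and by DESeq2 0.0067. In the authors' deposited table its log2 fold change is -0.45, again as named there, with adjusted p = 0.00697.

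Within the 4 Y-expressing libraries, of which only replicate 3 is labelled deficient, the log2 difference was 0.52 for Pdgfrb (SE 0.12, 95% interval 0.22 to 0.82) and 0.62 for Pdgfb (SE 0.14, 95% interval 0.25 to 0.98). In that fit limma gave both an adjusted p = 0.787, the lone labelled-deficient library being assumed to vary like the controls. That library has the highest Pdgfrb and Pdgfb of all 6, and the part of sex in these values was not tested. With 1 library left out at a time, Pdgfrb ranged over 0.40 to 0.51 and Pdgfb over 0.43 to 0.59. The ratio of Pdgfb to Pdgfrb per kilobase was 0.0940, 0.116 and 0.111 in aortas labelled ChemR23-deficient, beside 0.102, 0.0998 and 0.109 in those labelled control, so the ratio of the ligand to its receptor overlapped between groups.

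Marker transcripts of cell types known to carry these transcripts did not all move the same way. Platelet markers, 8 genes of a cell that stores PDGF, summed to 139 to 277 normalized counts in aortas labelled ChemR23-deficient and 717 to 1130 in those labelled control, in the direction opposite to Pdgfb. In this list 1 of 8 genes (Ppbp) passed limma and DESeq2 called 6, all lower, where limma called 0.135% and DESeq2 4.4% of all genes. The groups did not overlap for 6 of the 8, all lower, beside 8.24% of all genes, and 7 had an unadjusted limma p under 0.05, beside 12.2%. Gp6 and Gp1bb were at 0 in a library. Endothelial markers summed to 77089 to 98922 against 74701 to 105625, with 0 of 10 called by limma and 1 lower by DESeq2. Pericyte markers summed to 86042 to 139659 against 169003 to 220773, lower in every labelled-deficient library. Rgs5 made up most of that sum, at 47764 to 93233 against 125048 to 181591, and Notch3 (1622 to 2182 against 2358 to 2549) and Kcnj8 (1607 to 1701 against 1798 to 2025) were also lower without overlap. The other 5 markers, Abcc9 and Cspg4 among them, overlapped between groups. Of these, Higd1b and Vtn were near the floor, with means over the 6 libraries of 4.35 and 4.55 normalized counts. The sum of this list thus mostly follows Rgs5 and need not follow pericytes. Of the 8, 0 passed limma, 3 had an unadjusted p under 0.05 and 1 (Rgs5) was called lower by DESeq2, with Higd1b at 0 in a library. In bulk RNA a change in the number of cells of a type and in RNA per cell cannot be told apart, and the part of these shifts in the Pdgfb and Pdgfrb values was not tested. The macrophage marker sum of labelled-deficient replicate 3 lay within the control range. Single macrophage markers of that library went both ways. Cd68, Lgals3 and Trem2, at 572, 1993 and 158 normalized counts, lay above all controls. Cd163, Mrc1 and Mertk, at 15.2, 125 and 4199, lay below all controls, and the other markers of the list lay within the control range.

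**Figure D2:**
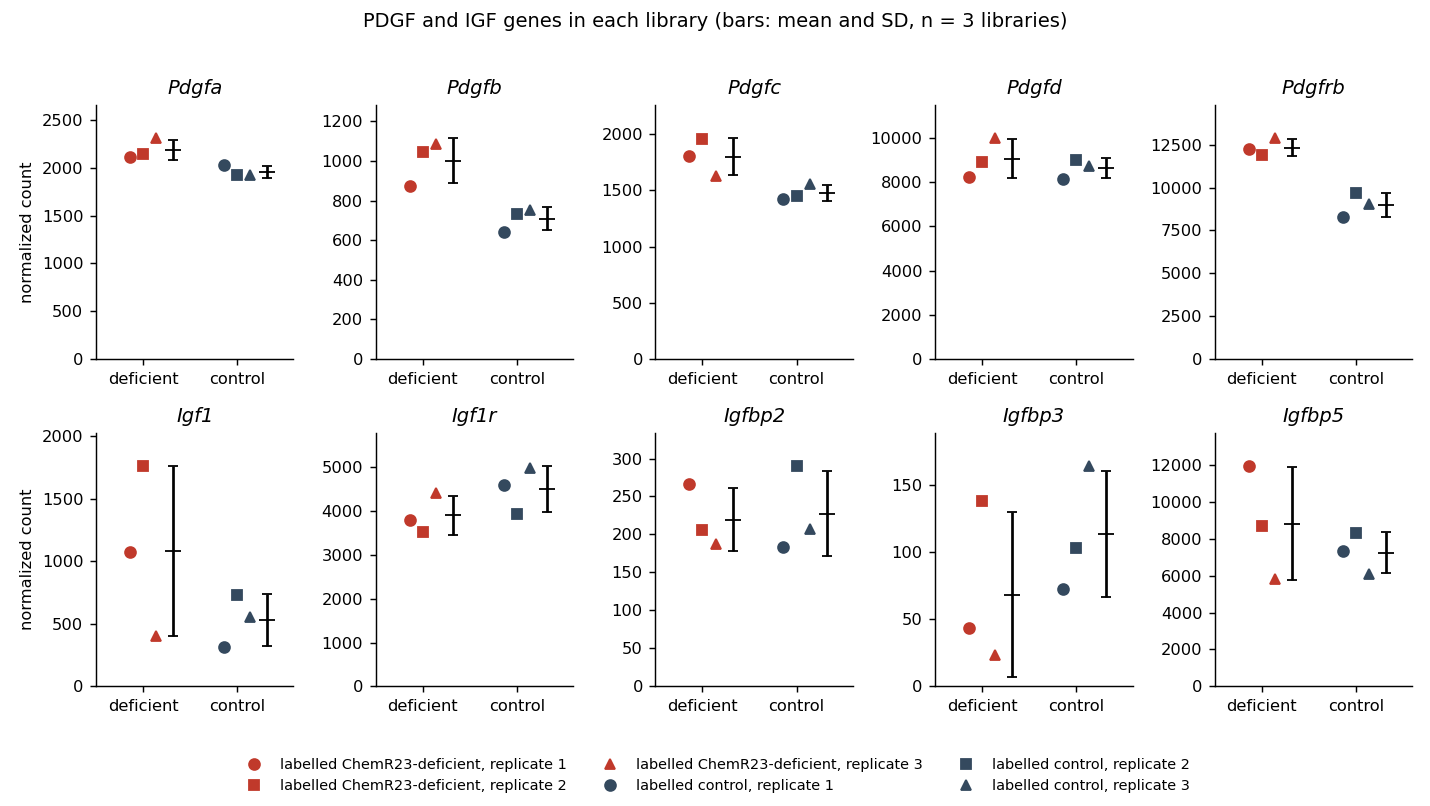
Normalized counts of the 10 genes in each library on linear axes from 0, with the libraries labelled ChemR23-deficient (red) left of those labelled control (dark blue), and bars for the mean and SD of 3 libraries. The groups are apart for Pdgfa, Pdgfb, Pdgfc and Pdgfrb, and they overlap for the other 6 genes.

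Pdgfa encodes the A chain, which binds mainly the alpha receptor (ENSMUSG00000025856, chromosome 5, 138976014 to 138997370, minus strand). It had 2109, 2139.8 and 2309 normalized counts in aortas labelled ChemR23-deficient, against 2027, 1923 and 1923 in those labelled control. The groups were narrowly apart, with a log2 difference of 0.16 (SE 0.07, 95% interval 0.00 to 0.32, limma adjusted p = 0.411). The antisense gene 6330403L08Rik overlaps 26.1% of the exon bases of Pdgfa. The kit marks strand, but the strand setting of the counting is not known here, so the value of Pdgfa is uncertain by the reads of that overlap.

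Pdgfc and Pdgfd encode the PDGF chains made with an amino-terminal CUB domain, which a protease must remove before the growth factor can bind. Pdgfc (ENSMUSG00000028019, chromosome 3, 81036416 to 81214040, plus strand) had 1803, 1959.6 and 1631 normalized counts in aortas labelled ChemR23-deficient, against 1423, 1452 and 1553 in those labelled control. The log2 difference was 0.28 (SE 0.09, 95% interval 0.08 to 0.48, limma adjusted p = 0.251; DESeq2 adjusted p = 0.123). Labelled-deficient replicate 2, with the most macrophage marker RNA, was highest and replicate 3 lowest of its group. Among the 4 Y-expressing libraries the difference was 0.14 (SE 0.10), about 2 times smaller.

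Pdgfd (ENSMUSG00000032006, chromosome 9, 6168584 to 6378850, plus strand), a ligand of the beta receptor, had 8228, 8926 and 9976 normalized counts in aortas labelled ChemR23-deficient, beside 8119.8, 8998 and 8734 in those labelled control. These groups overlapped, and the log2 difference was 0.07 (SE 0.09, 95% interval -0.13 to 0.27, limma adjusted p = 0.813). Of the summed PDGF ligand level per kilobase, Pdgfd made up shares of 0.678, 0.681 and 0.705 in aortas labelled ChemR23-deficient, beside 0.704, 0.726 and 0.715 in those labelled control.

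The promoters of this pair are shown because they belong to ligand genes of the same CUB-domain branch, of which only Pdgfc had groups that did not overlap; the difference between the genes was not tested. Each line gives the 250 bases before the start site, 5′ to 3′ on the strand of the gene, from RefSeq on GRCm38.p6, with the Pdgfc window at chr3:81036166-81036415 and the Pdgfd window at chr9:6168236-6168485, both on the plus strand. Capitals mark motif matches. Searched on both strands were the GC box (GGGCGG), the TATA box (TATAAA), the CCAAT box (CCAAT), the AP-1 site (TGACTCA) and the CArG box, the binding motif of serum response factor, with no overlap between matches in these windows.
Pdgfc: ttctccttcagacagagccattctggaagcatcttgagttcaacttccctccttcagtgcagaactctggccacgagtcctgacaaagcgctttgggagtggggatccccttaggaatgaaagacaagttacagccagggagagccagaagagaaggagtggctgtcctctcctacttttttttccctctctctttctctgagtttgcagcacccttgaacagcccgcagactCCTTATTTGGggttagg
Pdgfd: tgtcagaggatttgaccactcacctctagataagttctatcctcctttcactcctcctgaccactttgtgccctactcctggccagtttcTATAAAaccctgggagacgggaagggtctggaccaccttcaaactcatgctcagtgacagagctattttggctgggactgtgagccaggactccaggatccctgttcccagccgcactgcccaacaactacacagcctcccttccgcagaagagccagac
The Pdgfc window held 1 CArG box close to the start, a match found in 1.47% of 32851 promoter windows of that length. The Pdgfd window held 1 TATA box, as did 12.4% of the windows searched, but far upstream of the start. Both had few CpG pairs, 3 each. The GC content was 50.8% for Pdgfc and 53.6% for Pdgfd, beside a median of 52.4% over the windows searched. The Igf1r window, for contrast, held 42 CpG pairs and 2 GC boxes in 77.6% GC. The first Igfbp2 window held 3 GC boxes, where 32.7% of the windows searched held at least 1. Windows of 8 of the 10 genes were among those searched, and Pdgfb and Pdgfrb had none there. The windows searched do not show whether Pdgfrb has a listed promoter. A match is a string of letters and shows neither binding nor a cause.

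Igf1 encodes insulin-like growth factor 1, which macrophages and mesenchymal cells make in tissues (ENSMUSG00000020053, chromosome 10, 87858265 to 87937042, plus strand). It had 1075, 1765 and 405 normalized counts in aortas labelled ChemR23-deficient, against 314, 729.8 and 553 in those labelled control. Labelled-deficient replicates 1 and 2 lay above all controls, and replicate 3 lay inside the control range. The means were 1082 ± 680.0 and 532 ± 209 (SD, n = 3 each), a log2 difference of 0.87 (SE 0.52, 95% interval -0.33 to 2.06, limma adjusted p = 0.561), within the spread between replicates. Among the 4 Y-expressing libraries the difference was -0.31 (SE 0.48), and without labelled-deficient replicate 3 it was 1.45 (SE 0.36, limma adjusted p = 0.126), where sex pattern and label coincide and cannot be told apart.

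Igf1 and summed macrophage markers were ordered alike at the top. The library with the highest sum, labelled-deficient replicate 2 at 48451, had the highest Igf1, and replicate 1 at 34529 the next. The lowest sum, 11009.9 in control replicate 1, went with the lowest Igf1. Lyz2 was the largest part of the sum in labelled-deficient replicates 1 and 2, at 16075 and 25364 normalized counts, so the sum need not follow macrophages. The log2 difference was above 0 for 9 of the 12 markers, beside 48.8% of all genes, and below 0 for Mrc1, Mertk and Cd163. Of the 12 macrophage markers 0 passed limma, with 6 at an unadjusted p under 0.05, beside 12.2% of all genes. DESeq2 called 3 higher (Cd68, Lgals3 and Trem2) and 1 lower (Cd163), where it called 4.4% of all genes. No macrophage marker was at 0 in any library. The part of macrophage number in the Igf1 values was not tested.

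**Figure D3:**
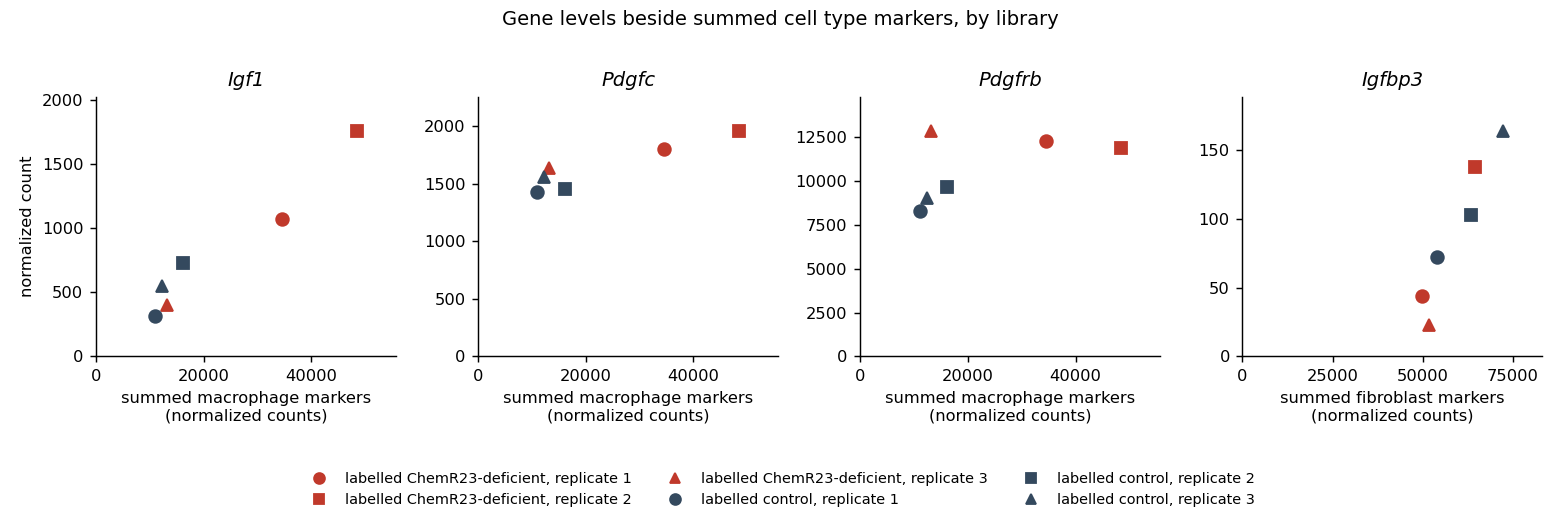
Normalized counts of Igf1, Pdgfc and Pdgfrb (y axes) against the summed macrophage markers of each library, and of Igfbp3 against summed fibroblast markers (x axes, normalized counts), for libraries labelled ChemR23-deficient (red) and labelled control (dark blue). Igf1 is highest in the library with the most macrophage marker RNA, whereas Pdgfrb is highest, at 12874, in labelled-deficient replicate 3, whose macrophage sum is 13216.

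Igf1r encodes the IGF-1 receptor (ENSMUSG00000005533, chromosome 7, 67952827 to 68233668, plus strand). It had 3788, 3531 and 4399.8 normalized counts in aortas labelled ChemR23-deficient, against 4599.8, 3939 and 4980.3 in those labelled control. Replicates 1 and 2 of the labelled-deficient group were the lowest of all 6 libraries and replicate 3 lay among the controls. The log2 difference was -0.21 (SE 0.11, 95% interval -0.47 to 0.05, limma adjusted p = 0.523), and among the 4 Y-expressing libraries it was -0.03. Per kilobase, the ratio of Pdgfrb to Igf1r was 9.91, 10.3 and 8.97 in aortas labelled ChemR23-deficient, beside 5.52, 7.53 and 5.57 in those labelled control, so this ratio was higher in every aorta labelled deficient than in any control, with no test made on it.

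The genes of IGF-binding proteins 2 and 5 lie 5457 bases apart on chromosome 1, on opposite strands with their ends facing each other. Igfbp5, whose protein binds matrix and is made by smooth muscle (ENSMUSG00000026185, 72857932 to 72874884, minus strand), had 11967, 8705 and 5820.2 normalized counts in aortas labelled ChemR23-deficient, against 7314, 8341 and 6091 in those labelled control. The labelled-deficient group held both the highest and the lowest value, and the log2 difference of 0.24 (SE 0.24, 95% interval -0.32 to 0.79, limma adjusted p = 0.748) lay within that spread. It became -0.01 without labelled-deficient replicate 1 and -0.30 among the 4 Y-expressing libraries.

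Igfbp2, whose protein is the second most abundant IGF-binding protein of blood (ENSMUSG00000039323, 72824503 to 72852474, plus strand), had 266, 206 and 187 normalized counts in aortas labelled ChemR23-deficient, beside 184, 290.6 and 207 in those labelled control. The groups covered almost the same range, with a log2 difference of -0.04 (SE 0.21, 95% interval -0.52 to 0.44, limma adjusted p = 0.965). The ratio of Igfbp5 to Igfbp2 per kilobase was 13.8, 13.0 and 9.57 in aortas labelled ChemR23-deficient, beside 12.2, 8.83 and 9.03 in those labelled control.

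Igfbp3, whose protein carries most IGF-1 in blood (ENSMUSG00000020427, chromosome 11, 7206086 to 7213923, minus strand), had the lowest level per kilobase of the 10 genes and was at 43.7, 138 and 23.3 normalized counts in aortas labelled ChemR23-deficient, beside 72.3, 103 and 164 in those labelled control. The spread was wide inside each group, more so among the aortas labelled deficient, and the groups overlapped. The log2 difference was -1.02 (SE 0.60, 95% interval -2.42 to 0.37, limma adjusted p = 0.553). It was -0.45 without labelled-deficient replicate 3 and -1.71 without replicate 2 of that group. Fibroblast markers summed to 49789, 64495 and 51754 in aortas labelled ChemR23-deficient, beside 53873, 63517 and 72357 in those labelled control. The library with the highest sum, control replicate 3, also had the highest Igfbp3. Of the 10 fibroblast markers 0 passed limma, and 3 had an unadjusted limma p under 0.05, beside 12.2% of all genes. DESeq2 called 1 lower (Dcn), beside 4.4% of all genes called in either direction, and no fibroblast marker was at 0. Adipocyte markers summed to 581, 15676 and 393 in aortas labelled ChemR23-deficient, beside 5523, 48069 and 9313 in those labelled control, with Lep and Retn at 0 in a library. Of the 8 adipocyte markers 0 passed limma and DESeq2 called 1 lower (Lep), beside 4.4% of all genes called. Their log2 difference was above 0 for 0 of the 8, beside 48.8% of all genes, and 6 had an unadjusted limma p under 0.05, beside 12.2%. Igfbp3 was thus lowest in the 2 libraries with the fewest adipocyte transcripts. It was not highest where these were most abundant: control replicate 2, with the sum of 48069, had less Igfbp3 (103) than control replicate 3 (164) and labelled-deficient replicate 2 (138). The part of adipocytes in the Igfbp3 values was not tested. Igfbp1, its neighbour 3539 bases away on the same chromosome, had 0 reads in all 6 libraries, which allows up to 3 reads in a library (counting error only).

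**Figure D4:**
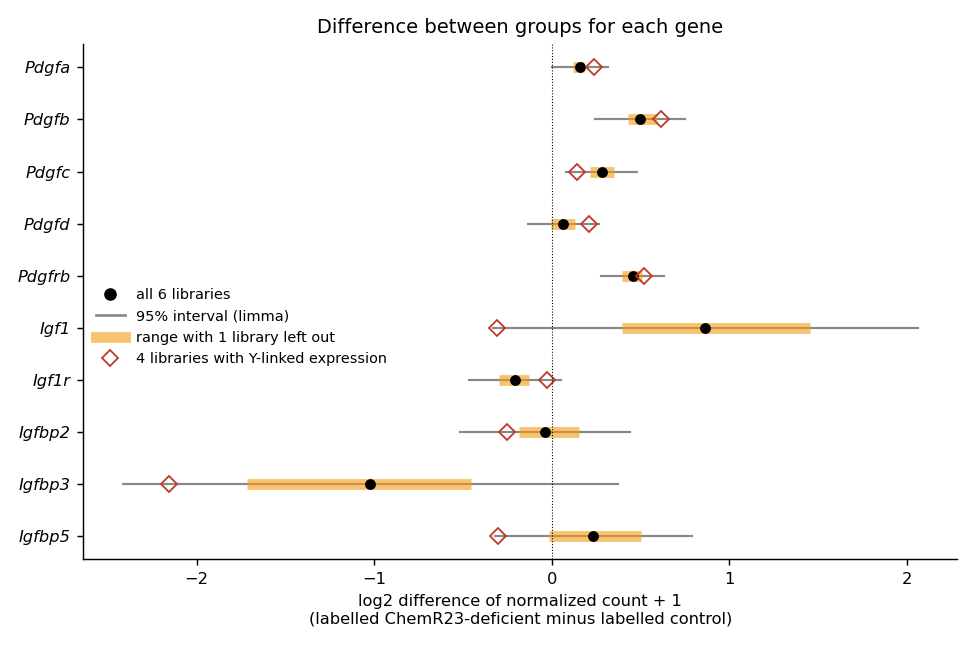
Log2 difference of normalized count + 1, labelled ChemR23-deficient minus labelled control, for each gene (black points) with its 95% limma interval (grey), the range with 1 library left out (orange) and the value among the 4 Y-expressing libraries (red diamonds). For Pdgfa, Pdgfb, Pdgfc and Pdgfrb all of these lie above 0, with the interval of Pdgfa starting at 0.0003. For Igf1 the diamond is at -0.31 and the point at 0.87.

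Other genes of the PDGF system were read from a list of 9. None passed limma, where 0.135% of all genes did, and 5 had an unadjusted p under 0.05, beside 12.2% of all. DESeq2 called 2 higher (Plau and Sparc) and 1 lower (Nrp1), where it called 4.4% of all genes. The median log2 difference of the list was 0.07. The groups did not overlap for 3 genes that were higher and 2 that were lower, beside 8.8% and 8.24% of all genes. Plau, the urokinase that can remove the CUB domain of PDGF-D, had 637, 630.2 and 333 normalized counts in aortas labelled ChemR23-deficient, against 186, 325 and 264 in those labelled control (log2 1.02, SE 0.29, limma adjusted p = 0.22). Among the 4 Y-expressing libraries its log2 difference was 0.40. Plat, the tissue plasminogen activator that does so for PDGF-C, differed by 0.05 (SE 0.18). Sparc, a matrix glycoprotein that binds PDGF-B, was at 78951, 101330 and 93003 against 58993, 69043 and 65098 (log2 0.50, SE 0.12, limma adjusted p = 0.154). Nrp1, a co-receptor, was at 2817, 2702 and 2351 in aortas labelled ChemR23-deficient, beside 4410, 3154 and 3721 in those labelled control (log2 -0.51, SE 0.13, limma adjusted p = 0.178). Pdgfra, the alpha receptor and a fibroblast marker, had 917, 1067 and 980 against 1109, 1099 and 1474, the opposite side from Pdgfrb (log2 -0.30, SE 0.13, limma adjusted p = 0.402). Lrp1, a co-receptor that binds the beta receptor, differed by 0.07 (SE 0.09).

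Of 16 other genes of the IGF system 15 were tested and none passed limma, with 5 at an unadjusted p under 0.05, beside 12.2% of all genes. DESeq2 called 1 higher (Htra1) and 2 lower (Igfbp4 and Pappa2), where it called 4.4% of all genes. The median log2 difference was -0.22. The groups did not overlap for 2 genes that were higher and 3 that were lower, beside 8.8% and 8.24% of all genes. Igfbp4, a binding protein that inhibits IGF action until cleaved, had 3698, 3226 and 2774 normalized counts in aortas labelled ChemR23-deficient, against 6068, 6732 and 5086 in those labelled control. No labelled-deficient library reached the lowest control, and the log2 difference was -0.88 (SE 0.13, limma adjusted p = 0.0603; DESeq2 adjusted p = 2.75e-07). Pappa2, a protease of the binding proteins 3 and 5, was at 96.8, 50.7 and 41.5 against 178, 139 and 234 (log2 -1.59, SE 0.34, limma adjusted p = 0.119). Pappa, the related protease that cleaves the binding protein 4, differed by -0.76 (SE 0.30) and Stc1, whose protein stanniocalcin-1 inhibits it, by 0.72 (SE 0.22). Htra1, a secreted protease that can cleave the binding protein 5, was at 15512, 17586 and 16835 in aortas labelled ChemR23-deficient, against 11187, 13148 and 11714 in those labelled control (log2 0.47, SE 0.09, limma adjusted p = 0.0898). Igfbp7, the most abundant of the list, differed by 0.18 (SE 0.12). Igf2 was low, at 31.1 to 113 normalized counts, and 64.5% of its exon bases are shared with annotated genes that overlap it, so its reads are uncertain.

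**Figure D5:**
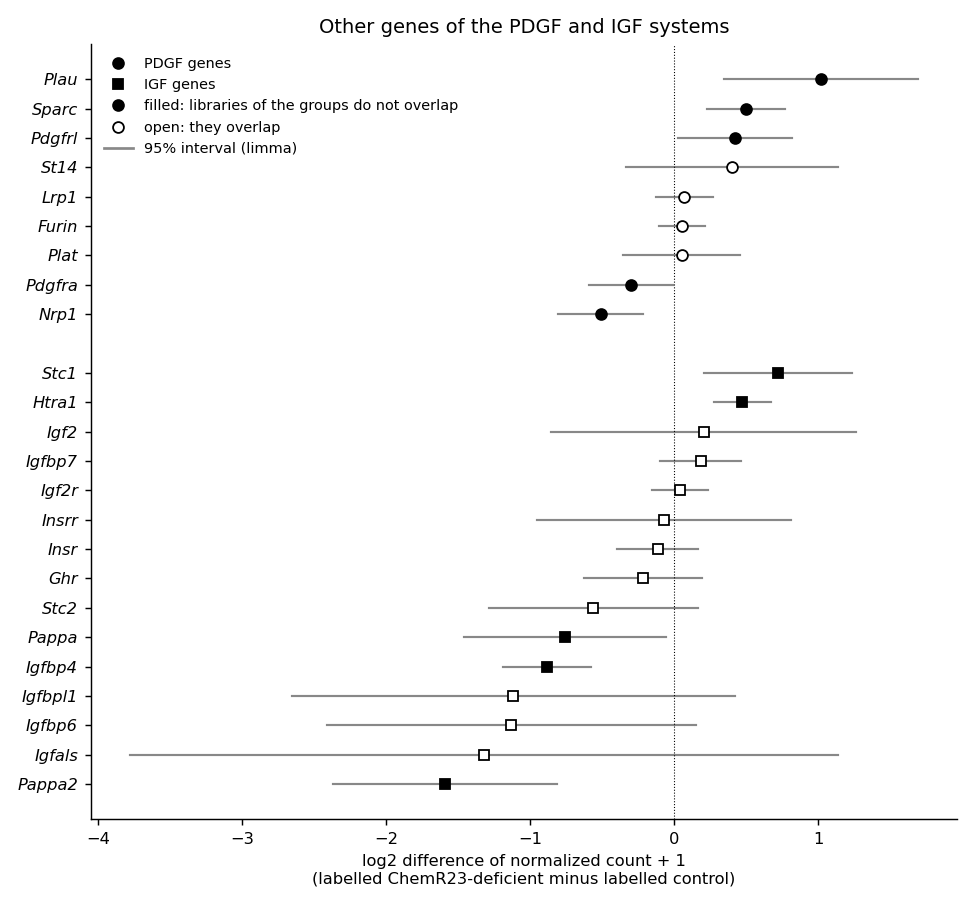
Log2 difference of normalized count + 1, labelled ChemR23-deficient minus labelled control, with 95% limma intervals, for 9 other PDGF genes (circles) and 15 other IGF genes (squares). Filled symbols mark genes whose groups do not overlap, among them Igfbp4 at -0.88 and Sparc at 0.50.

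Among 29 signal transducers shared by both receptor families none passed limma and 3 had an unadjusted p under 0.05, beside 12.2% of all genes. The median log2 difference was -0.00. Irs2, an adaptor of the insulin and IGF-1 receptors, was at 874, 911 and 1637 normalized counts in aortas labelled ChemR23-deficient, against 2395, 2699.7 and 1863 in those labelled control (log2 -1.07, SE 0.24, limma adjusted p = 0.147), and DESeq2 called it lower (adjusted p = 0.000936). Among the 4 Y-expressing libraries its difference was -0.49. Irs1 differed by 0.07 (SE 0.24), and 30.9% of its exon bases overlap another gene. Pik3r1, a regulatory subunit of phosphoinositide 3-kinase, differed by -0.46 (SE 0.17) and the kinase gene Src by 0.28 (SE 0.10). The phosphatase gene Ptpn11, with the highest mean normalized count of the list before any allowance for exon length, differed by 0.03 (SE 0.08). Of 12 feedback genes that growth factor signalling induces, none passed limma and 1, beside 12.2% of all genes, had an unadjusted p under 0.05. That gene was Dusp6, a phosphatase of ERK, at 1781, 1682 and 1554 against 1275, 1085 and 1153 (log2 0.51, SE 0.09, limma adjusted p = 0.0786; DESeq2 adjusted p = 0.000315). Spry1 and Spry4, inhibitors of receptor tyrosine kinase signalling, differed by -0.34 (SE 0.22) and -0.38 (SE 0.19), and the immediate early gene Egr1 by 0.51 (SE 0.46), with control replicate 2 at 2637 far below the other libraries.

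Other growth factor systems of the vessel wall were set beside these genes. Of 20 such genes 19 were tested, none passed limma, and 6 reached an unadjusted p under 0.05, beside 12.2% of all genes. Kit and Fgfr2 were called by DESeq2, both lower, where it called 4.4% of all genes. The groups did not overlap for 6 genes that were lower and for none that was higher, where 8.24% of all genes were lower without overlap, and the median log2 difference was -0.17. Kit, the stem cell factor receptor, was at 83.5, 108 and 112 normalized counts in aortas labelled ChemR23-deficient, against 391, 197 and 591 in those labelled control (log2 -1.82, SE 0.36, limma adjusted p = 0.109). Fgfr2, a fibroblast growth factor receptor, differed by -0.75 (SE 0.18, limma adjusted p = 0.17) and Hbegf, a ligand of the EGF receptor, by -0.38 (SE 0.12, limma adjusted p = 0.246). Fgfr1 and Fgf2, with the highest mean normalized counts of the list before any allowance for exon length, differed by -0.00 (SE 0.07) and -0.15 (SE 0.09). The difference between this list and the PDGF and IGF genes was not tested.

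The 3 genes most like each of Pdgfrb, Pdgfb and Pdgfc over the 6 libraries were sought among 11152 named genes with a mean of at least 100, by Pearson r of log2 values. For Pdgfrb these were Ext2, Fbn1 and Pnrc2 (r of 0.998, 0.997 and 0.995), and 79 genes exceeded 0.95. Fbn1, which encodes the microfibril protein fibrillin-1, was at 11493, 11196 and 11711 normalized counts in aortas labelled ChemR23-deficient, beside 9754, 10328 and 10029.7 in those labelled control. For Pdgfb they were Rbm24, Rcn1 and Phldb1 (0.998, 0.986 and 0.983), with 46 genes above 0.95. For Pdgfc they were Fuca2, Ctsh and Ifngr2 (0.995, 0.994 and 0.994), with 92 above 0.95. Fuca2 and Ctsh encode the enzymes alpha-L-fucosidase 2 and cathepsin H. These values describe 6 points that share the group difference, and many genes reach them.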

How the data were processed

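Aortic media and intima gave 6 RNA libraries, placed by the genotype label into 3 ChemR23-deficient and 3 control. Per the labels' protocols, polyadenylated RNA was prepared with Illumina's TruSeq Stranded mRNA chemistry and read from both ends. Per the submitters' processing notes HISAT2 2.2.1 and featureCounts 2.0.1 were used with GRCm38, along with bcl2fastq 2.20, R 4.2.0 and DESeq2 1.36.0. Neither the annotation nor the strand setting is stated there.

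The authors deposited a signal per library, gene read counts divided by 1 size factor, beside their log2 fold change, test score, p-value and adjusted p-value. All values above 0 (100% in each library) were whole multiples, within 0.001, of the smallest, so division by that step returned whole reads. The step lay near 1 in labelled-deficient replicate 3 (1.01) and control replicate 3 (1.00).

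The main test was limma 3.58.1 with a mean-variance trend of log2(normalized count + 1), run on 20669 genes whose mean reached 1, two-sided, with Benjamini-Hochberg adjustment over all of them. Log2 differences are on that scale, which understates changes of low genes. Alternatives were edgeR 4.0.16 and DESeq2 1.42.0 on recovered reads, TMM scaling, pseudocounts of 0.5 and 5, other filters, each library left out, and the 4 Y-expressing libraries. The limma test was tested on simulated data with 3 against 3 libraries and 20671 genes. It recovered 100 of 100 genes changed 3-fold and 75 of 100 changed 1.5-fold, with 7 false calls. The changed genes were drawn from well-expressed genes only. Every gene was given the same fixed spread between libraries beyond counting error, and no sex or cell type difference was simulated. The recovery holds for that setting and is not the power of the test on these data. Exon lengths and positions come from GENCODE on GRCm38, promoters from RefSeq, and the software was Python 3.11.15 with R 4.3.3.

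The 10 genes and all lists were chosen with earlier results of these data known. Named genes are the 10, every called gene of a list, and of each list the 3 with the lowest p and the 2 with the highest mean; others were named to read a member, and 1 gene that the rule names is not reported here. Genes most like a member were sought for the 3 members with the lowest p.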

Additional observations from a re-analysis of the deposited data

How the results depend on the processing

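Of 140 values of the 10 genes under other settings, 132 kept their direction and side of the threshold, 2 passed it (Pdgfrb and Pdgfb by DESeq2, which called 2 of the 10), and 6 changed direction. Those were Igfbp5 without labelled-deficient replicate 1 (-0.014), Pdgfd without labelled-deficient replicate 3 (-0.0066), Igfbp2 without that library (0.07) or control replicate 2 (0.15), and, among the 4 Y-expressing libraries, Igf1 (-0.31) and Igfbp5 (-0.30); the cause was not tested. With each library left out, these ranged over -0.0066 to 0.13 for Pdgfd, -0.18 to 0.15 for Igfbp2, -0.014 to 0.51 for Igfbp5 and 0.39 to 1.45 for Igf1. The count of genes called over all genes, 28, became 91 with no filter on low values, 1 with a mean of at least 10, 1 by edgeR, 713 by DESeq2 and 0 among the 4 Y-expressing libraries. With each library left out it ranged over 0 to 427: leaving out labelled-deficient replicate 3 gave 427, leaving out control replicate 3 gave 7, and each of the other 4 gave 0. None of the 10 genes was called in any of the limma or edgeR fits. Of the 65 pathway genes tested, 0 were called, where limma called 0.135% of all genes. With no filter 1 was called (Igfbp4, limma adjusted p = 0.0374), beside 91 of all 28288 genes tested there. DESeq2 called 8, where it called 4.4% of all genes. Leaving out each library in turn gave 0 to 4. The 4, without labelled-deficient replicate 3, were Igfbp4, Dusp6, Irs2 and Plau, where limma called 2.07% of all genes. The median difference of all genes stayed between -0.01 and -0.00 under every setting, TMM scaling included. For the genes whose groups did not overlap, an exact two-sided permutation test gives p = 0.1, the lowest that 3 against 3 libraries allow. No paired analysis was possible because the labels give no replicate numbers shared between the groups.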

Other observations

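Pdgfb and Pdgfa encode the PDGF chains that need no CUB domain removal. Per kilobase, the ratio of Pdgfb to Pdgfa was 0.311, 0.367 and 0.352 in aortas labelled ChemR23-deficient, against 0.238, 0.286 and 0.293 in those labelled control. The groups did not overlap, and no test was made on the ratio. Summed over the 10 genes, the normalized count was 42404, 40302 and 38710.4 in aortas labelled ChemR23-deficient, beside 32985, 36182 and 34008 in those labelled control, a sum led by Pdgfrb, Pdgfd and Igfbp5.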
